A study of Homo sapiens with 9 samples.

Results

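Antisense noncoding RNAs are transcribed from the strand opposite a named gene and carry that gene's symbol with the ending -AS1, -AS2 or -AS3. The 283 such RNAs described here were taken by symbol from a table of 27059 genes, with a mean of at least 20 estimated counts over the 9 libraries; EPB41L4A-AS1 was left out. In all, 541 rows carried such a symbol, and 257 of them lay under the threshold. Of the 283 RNAs, 269 end in -AS1, 13 in -AS2 and 1, the remaining symbol, in -AS3. The RNAs were chosen by their mean count, so their levels are a description; their changes between groups were not used in the choice. Just outside the threshold lay ZNF529-AS1, TPRG1-AS1 and LAMA5-AS1, with mean counts of 19.7, 19.5 and 19.5. Just inside it lay CATIP-AS2, ZRANB2-AS2 and ZNF30-AS1, with mean counts of 20.01, 20.4 and 20.9.

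Many antisense RNAs start near the start of their sense gene and run away from it, so that both RNAs leave 1 stretch of open, often CG-rich DNA. Others start inside or beyond the sense gene and run back across it. Some are known to act on the gene beside them, through chromatin, transcription or pairing of the RNAs, and for many no role is known. Antisense RNAs are usually less abundant than the messenger RNA of their neighbour, and several have been studied as regulators of growth or drug response in lung cancer lines.

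The series holds RNA sequencing of PC9/GR, lung adenocarcinoma cells that grow despite gefitinib, a drug against the EGF receptor kinase. There are 3 libraries labelled sh1-HUMT and 3 labelled sh2-HUMT, each with a hairpin against the long noncoding RNA HUMT, and 3 control libraries labelled shNC. Every group was the same resistant line in the same medium with serum, and whether hairpins were carried by single clones or pools is not given in the labels. Some titles spell the target HUNT, the deposited columns name A549 and Si in place of PC9/GR and sh, and the design text describes another RNA in a retinoblastoma line. Nothing in the labels says that replicates were separate cultures, so p-values measure the spread between these libraries, which may be technical.

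HUMT, listed as LINC00857 (gene ID 439990), had 9.17, 9.58 and 10.1 CPM (scaled counts) in sh1-HUMT libraries, 8.75, 9.60 and 8.50 CPM in sh2-HUMT libraries, and 9.36, 9.85 and 8.51 CPM in shNC libraries. The groups overlapped: the log2 change of LINC00857 was 0.06 (95% interval -0.14 to 0.25, adjusted p = 0.685, edgeR) for sh1-HUMT and -0.05 (-0.24 to 0.15, adjusted p = 0.740) for sh2-HUMT. The groups are therefore named below only as the libraries labelled sh1-HUMT, sh2-HUMT and shNC, and no direction is tied to a loss of HUMT. Libraries held about 21891000 to 22159900 counts, of which the antisense RNAs took 0.454 to 0.476%. Epithelial markers were present, with a sum of EPCAM, KRT8, KRT18, KRT19 and CDH1 of 2810 to 2978 CPM in sh1-HUMT libraries, 2923 to 2948 CPM in sh2-HUMT libraries and 3296 to 3482 CPM in shNC libraries. KRT8 and KRT18 made up most of these sums, and EPCAM had only 7.42 to 10.6 CPM. CDH1 had means of 128, 127 and 102 CPM in the same order, while the others had lower means in both hairpin groups. Of 5 lung markers, FOXA2 and NAPSA had means above 1 CPM, while NKX2-1, SFTPB and SFTPC reached at most 0.269, 0.679 and 0.230 CPM. Lists of 5 markers each of fibroblasts, endothelium and white blood cells held 1 gene each with a mean above 1 CPM (COL1A1, PECAM1 and CD14). DCN was at 0 in every hairpin library and reached at most 0.0470 CPM in shNC libraries. CD3E had no row among the 27059 genes. The fibroblast list summed to 20.9 to 22.7 CPM in sh1-HUMT libraries, 24.3 to 25.6 CPM in sh2-HUMT libraries and 15.7 to 19.8 CPM in shNC libraries, and the endothelium list to 1.62 to 2.64, 2.2 to 2.58 and 1.36 to 1.75 CPM in the same order. White blood cell sums were 12.4 to 14.1, 14.2 to 15.5 and 12 to 13.6 CPM in that order, and the part of these lists in the results was not tested. In bulk RNA, fewer cells of a type and less RNA per cell cannot be told apart.

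5 promoter windows are printed because the antisense RNA and its sense gene share part of 1 window, and because the pairs moved in opposite or in the same directions. Each window runs from 250 bases before to 50 bases after the start of the antisense RNA, 5′ to 3′ on its own strand, from the RefSeq promoter table of GRCh38.p14, and capitals mark the bases that the window of the sense gene also covers. All 5 pairs are divergent, with the starts back to back.
ID2-AS1, chr2:8681814-8682113, minus strand: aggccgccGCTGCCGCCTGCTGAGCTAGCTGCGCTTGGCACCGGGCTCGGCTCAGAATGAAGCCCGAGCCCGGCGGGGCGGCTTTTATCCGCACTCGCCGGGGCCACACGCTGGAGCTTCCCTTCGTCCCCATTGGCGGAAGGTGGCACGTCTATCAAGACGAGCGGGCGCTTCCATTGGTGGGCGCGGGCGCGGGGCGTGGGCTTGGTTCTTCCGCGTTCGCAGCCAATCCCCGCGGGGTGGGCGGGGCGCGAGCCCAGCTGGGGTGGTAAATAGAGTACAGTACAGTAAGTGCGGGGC
WAC-AS1, chr10:28532305-28532604, minus strand: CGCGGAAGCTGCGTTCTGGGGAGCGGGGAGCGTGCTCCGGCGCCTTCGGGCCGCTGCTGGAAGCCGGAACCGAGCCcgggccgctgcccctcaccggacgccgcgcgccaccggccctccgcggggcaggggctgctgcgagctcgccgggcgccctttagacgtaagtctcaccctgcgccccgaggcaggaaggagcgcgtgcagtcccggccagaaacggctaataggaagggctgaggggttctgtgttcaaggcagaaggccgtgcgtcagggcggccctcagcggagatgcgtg
USP46-AS1, chr4:52659156-52659455, plus strand: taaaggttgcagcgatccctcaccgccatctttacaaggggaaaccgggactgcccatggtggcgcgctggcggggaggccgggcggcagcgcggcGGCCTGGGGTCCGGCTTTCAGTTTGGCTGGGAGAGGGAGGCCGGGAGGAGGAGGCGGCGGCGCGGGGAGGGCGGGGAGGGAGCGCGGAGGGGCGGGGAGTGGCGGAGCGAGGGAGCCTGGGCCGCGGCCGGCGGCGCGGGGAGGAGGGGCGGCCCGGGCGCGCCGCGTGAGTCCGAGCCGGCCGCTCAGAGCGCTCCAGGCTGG
INTS6-AS1, chr13:51453095-51453394, plus strand: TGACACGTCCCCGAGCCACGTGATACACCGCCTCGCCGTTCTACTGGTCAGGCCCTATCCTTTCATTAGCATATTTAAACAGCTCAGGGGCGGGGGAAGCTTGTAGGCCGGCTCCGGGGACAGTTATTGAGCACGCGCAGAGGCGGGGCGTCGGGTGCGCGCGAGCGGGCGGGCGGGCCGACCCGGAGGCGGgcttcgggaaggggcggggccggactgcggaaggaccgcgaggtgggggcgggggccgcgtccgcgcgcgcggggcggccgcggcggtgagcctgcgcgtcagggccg
UGDH-AS1, chr4:39527589-39527888, plus strand: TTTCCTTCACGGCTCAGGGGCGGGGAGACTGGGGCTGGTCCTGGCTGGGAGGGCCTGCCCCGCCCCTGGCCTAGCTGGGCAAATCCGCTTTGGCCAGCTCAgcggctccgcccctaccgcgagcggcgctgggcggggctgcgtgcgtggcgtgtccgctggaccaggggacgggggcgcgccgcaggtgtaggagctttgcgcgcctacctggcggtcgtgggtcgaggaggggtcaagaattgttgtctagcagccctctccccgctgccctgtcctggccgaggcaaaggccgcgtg
ID2-AS1 shares 292 of 300 bases with the window of ID2, and the starts lie 193 bases apart. USP46-AS1 shares 204 bases, INTS6-AS1 192, UGDH-AS1 101 and WAC-AS1 76, with starts 105, 309, 400 and 425 bases apart in that order.

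Most of the antisense RNAs had an annotated start close to an annotated start of their sense gene. A sense gene was found by symbol for 276 of the 283, covering 273 different genes, and 7 had none in the table (HOXB-AS1, RPARP-AS1, BBOX1-AS1, HOXD-AS2, HOXA-AS2, KRTAP5-AS1 and KCNMB2-AS1). In GENCODE release 29, 272 pairs could be placed, of which 186 had starts within 2000 bases of each other, 84 overlapped with starts further apart and 2 did not overlap. The distance is that between the nearest annotated transcript starts of both genes, whether or not those transcripts are the main ones. No source says whether strand was used in counting, and without it reads from bases that lie in exons of both genes cannot be told apart. Such bases existed in 181 placed pairs, with a median of 4.13% of the antisense exonic bases, and exceeded 50% in 16 pairs. Exonic bases in exons of another gene were found for 104 of the antisense RNAs, and exceeded 50% in 2.

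Compared per length, in the deposited expression values that behave as FPKM, antisense RNAs had a median level of 0.891 FPKM and sense genes of 8.42 FPKM. The antisense RNA was above its sense gene in 60 of 276 pairs, and the median ratio of their levels was 0.151. In 121 pairs the antisense level was over 10 times lower than the sense level, and in 18 it was over 10 times higher. PXN-AS1, beside the gene of the focal adhesion protein paxillin, had the highest level at 1338 FPKM, against 41.4 FPKM for PXN, with 38.6% of its exonic bases inside PXN exons. LRRC75A-AS1, a host of small nucleolar RNAs, had 332.8 FPKM, against 19.99 FPKM for LRRC75A. CCDC13-AS1 and DLGAP1-AS1 had 15.2 and 14.6 FPKM, against 0.239 FPKM for CCDC13 and 0.232 FPKM for DLGAP1, genes with little RNA in these cells.

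Changes were small for most of the antisense RNAs. In edgeR's quasi-likelihood test with Benjamini-Hochberg adjustment over all 18540 genes tested, all 283 were tested, and 51 were called in sh1-HUMT against shNC at an adjusted p under 0.05 (18%), 38 higher and 13 lower. The share called over all genes was 31.9%, with 15.7% higher and 16.3% lower. In sh2-HUMT against shNC, 53 antisense RNAs were called (18.7%), 33 higher and 20 lower, where 32.5% of all genes were called, 15.9% higher and 16.5% lower. The median log2 change of the antisense RNAs was 0.09 in sh1-HUMT and 0.10 in sh2-HUMT, against medians of 0.00 over all genes. Values above 0 were found for 165 and 166 of the 283 (58.3% and 58.7%), against 49.8% and 49.99% of all genes. That lean differed with mean count, for all genes too. At 20 to 50, 50 to 100 and 100 to 300 counts, antisense medians in sh1-HUMT were 0.08, 0.21 and 0.07. All genes of those counts had 0.03, 0.06 and 0.03. In sh2-HUMT the medians were 0.15, 0.19 and 0.10, against 0.07, 0.08 and 0.03. At 300 to 1000 counts the antisense medians were 0.003 and 0.0007, against -0.02 for all genes in each comparison. The median fold among the called RNAs was 1.33 in sh1-HUMT and 1.32 in sh2-HUMT. A correction for GC content and length was chosen after seeing the data. With it, the split was 59 higher and 4 lower in sh1-HUMT, and 55 higher and 6 lower in sh2-HUMT. Sense genes then split into 70 higher and 32 lower in sh1-HUMT, and 65 and 36 in sh2-HUMT. The edgeR fit with this correction left out the TMM-scaled library totals. Its median log2 change over all genes was 0.07 in sh1-HUMT and 0.06 in sh2-HUMT. The split in that fit thus includes an upward shift of all genes and cannot be put down to GC content and length alone. The same shift is in every edgeR value given below with this correction. Shares called over all genes were not counted under it. All genes and the sense genes moved upward in that fit too, so how much of the skew is particular to antisense RNAs cannot be told.

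**Figure D1:**
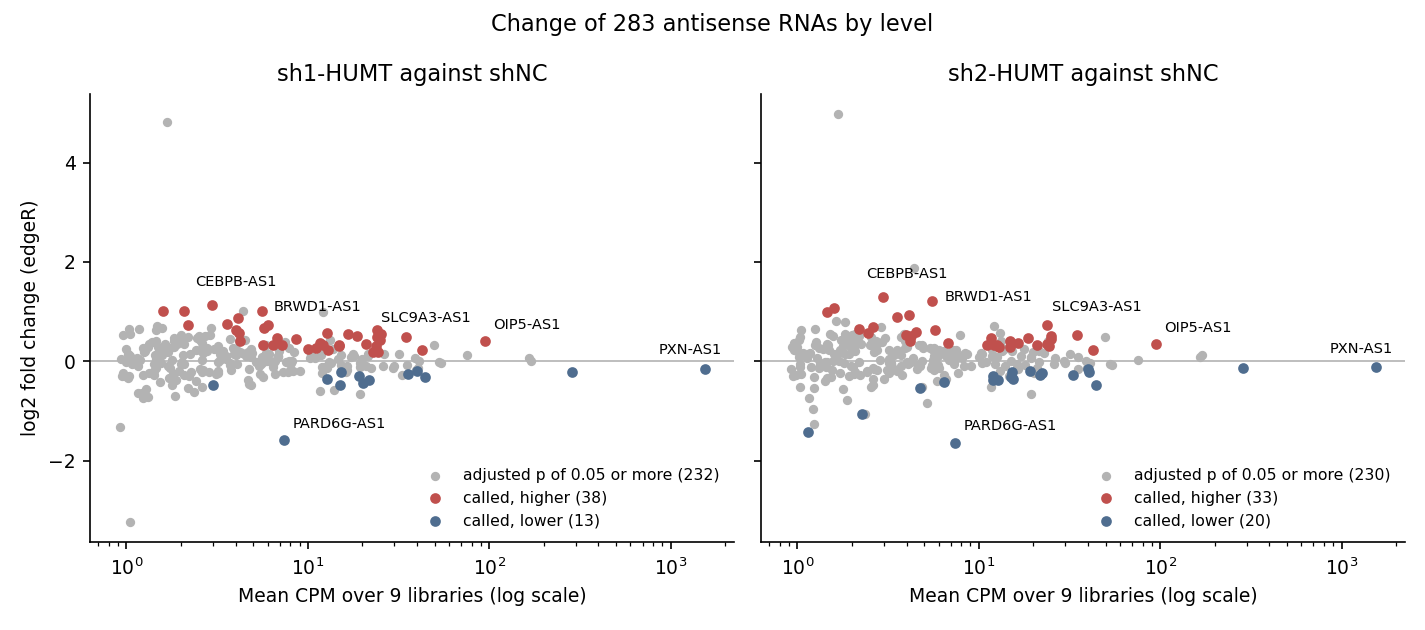
log2 fold change (edgeR) of 283 antisense RNAs against their mean CPM over 9 libraries on a log axis, for sh1-HUMT against shNC (left) and sh2-HUMT against shNC (right); red and blue points passed an adjusted p of 0.05. Called RNAs with large changes are few, and the highest grey point, UST-AS1, was not called in either comparison.

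The share called differed with mean count. Among antisense RNAs with a mean count of 300 to 1000, 22 of 53 (41.5%) were called in each comparison, against 39.3% of all genes of that count in sh1-HUMT and 40.0% in sh2-HUMT. Between 20 and 50 counts, 3 of 90 (3.33%) were called in sh1-HUMT and 5 of 90 (5.56%) in sh2-HUMT, against 9.98% and 9.79% of all genes of that count. In the ranges between, at 50 to 100 counts, 12.7% and 16.4% were called, against 15.1% and 16.9% of all genes, and at 100 to 300 counts 21.1% and 18.4%, against 26.03% and 28.2%. Of the 9 antisense RNAs with at least 1000 counts, 3 were called in each comparison (33.3%), against 55.5% and 55.0% of all genes. The antisense share was thus the lower one in every range but 300 to 1000 counts, though close to that of all genes at 50 to 100 counts. The range from 1000 counts up rests on 9 RNAs, and no difference between shares was tested. The median 95% interval of a log2 change reached 0.66 to either side at 20 to 50 counts and 0.16 at 300 to 1000 counts. Small changes of those 90 RNAs were therefore not detectable at this depth.

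**Figure D2:**
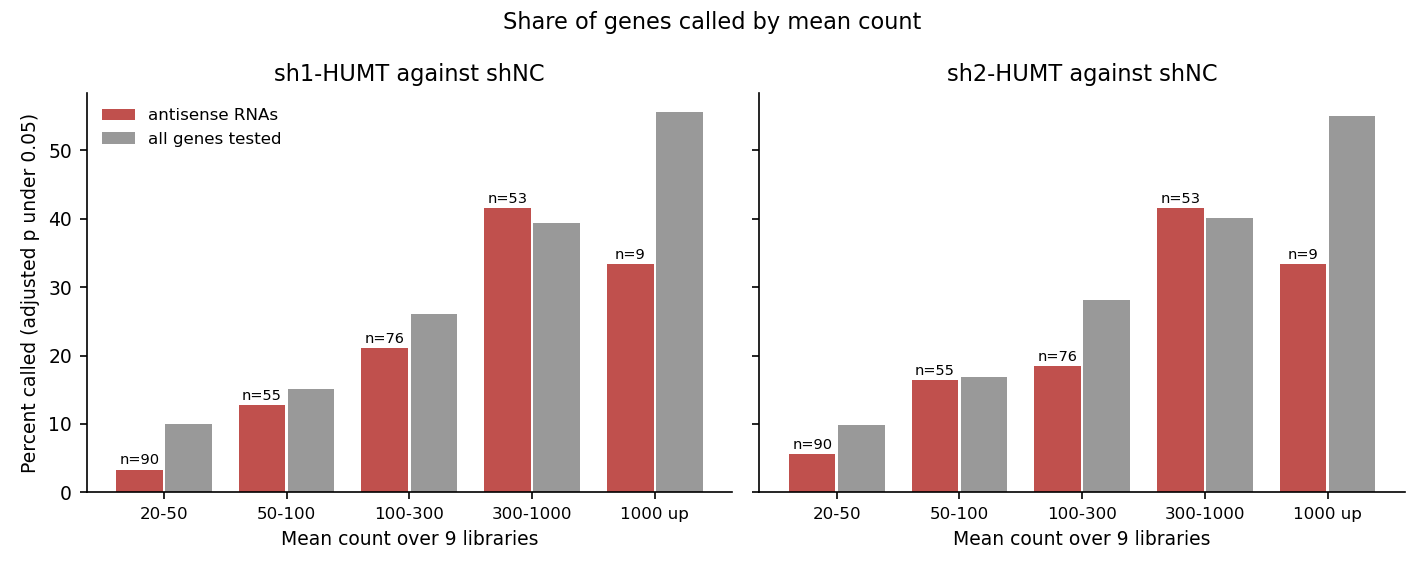
Percent of genes called at an adjusted p under 0.05 (edgeR) by mean count over 9 libraries, for antisense RNAs (red, number above the bar) and all genes tested (grey). The share rises with count for all genes, and the 53 antisense RNAs with 300 to 1000 counts reach 41.5% in both comparisons.

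Both comparisons use the same 3 shNC libraries. With that, 39 antisense RNAs were called the same way in both, 29 higher and 10 lower (25.1% of all genes were, 12.3% higher and 12.8% lower), and none was called in opposite directions. That is 76.5% of what was called for sh1-HUMT and 73.6% of what was called for sh2-HUMT, against 78.6% and 77.3% over all genes. In 38 of the 39 (28 higher and 10 lower), all 6 hairpin libraries lay beyond all 3 shNC libraries. Over all genes, 4574 of the 4654 called the same way in both did so, or 24.7% of the 18540 tested. A further 12 were called in sh1-HUMT only, 14 in sh2-HUMT only, and 218 in neither. Without sh2-HUMT replicate 2, the count called in both was 25 (20 higher and 5 lower). No antisense RNA was called in sh2-HUMT against sh1-HUMT, where 0.286% of all genes were, 0.108% higher and 0.178% lower. There 22 had an unadjusted p under 0.05, and DESeq2 called 1, SLC9A3-AS1 (named after its value was seen; log2 change 0.23, adjusted p = 0.0393), with 16 at an unadjusted p under 0.05.

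The 29 RNAs that rose in both comparisons had log2 changes of 0.19 to 1.14 in sh1-HUMT and 0.23 to 1.30 in sh2-HUMT, and mean counts of 35.4 to 2092. CEBPB-AS1, beside the gene of a transcription factor of differentiation and inflammation, had 3.12, 3.96 and 3.35 CPM in sh1-HUMT libraries, 3.90, 4.53 and 3.18 CPM in sh2-HUMT libraries, and 1.60, 1.66 and 1.46 CPM in shNC libraries. Every hairpin library lay well above every control. Its fold was 2.21 in sh1-HUMT (log2 change 1.14, SE 0.18, adjusted p = 0.000565, edgeR, n = 3 each) and 2.46 in sh2-HUMT (log2 change 1.30, SE 0.18, adjusted p = 0.000203). BRWD1-AS1, beside the gene of a bromodomain protein, had 7.43, 5.03 and 6.43 CPM in sh1-HUMT libraries, 7.0, 6.97 and 7.78 CPM in sh2-HUMT libraries, and 4.19, 3.04 and 2.12 CPM in shNC libraries. These groups did not overlap, although the shNC libraries of BRWD1-AS1 spread over a wide range, and the folds were 2.02 (SE of the log2 change 0.22, adjusted p = 0.00435) and 2.33 (SE 0.22, adjusted p = 0.00133). PAX8-AS1, beside the gene of a thyroid and kidney transcription factor, had 4.50, 4.99 and 4.74 CPM in sh1-HUMT libraries, 5.21, 5.07 and 4.61 CPM in sh2-HUMT libraries, and 2.87, 2.12 and 2.82 CPM in shNC libraries. Its folds were 1.82 and 1.90 (adjusted p = 0.000729 and 0.000406), with no overlap of the groups.

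TMEM254-AS1 was the other RNA that rose 2-fold in both comparisons, at 1.83, 2.02 and 1.79 CPM in sh1-HUMT libraries, 2.47, 1.81 and 1.66 CPM in sh2-HUMT libraries, and 1.32, 0.875 and 0.611 CPM in shNC libraries. Its folds were 2.0 (adjusted p = 0.0181) and 2.11 (adjusted p = 0.0122). Those calls failed when shNC replicate 2 or 3 was left out in sh1-HUMT (adjusted p up to 0.0634) and when sh2-HUMT replicate 1 was in sh2-HUMT (adjusted p = 0.0582). Per length the order of the groups was the other way round, with mean FPKM of TMEM254-AS1 of 0.663 in sh1-HUMT, 0.663 in sh2-HUMT and 0.893 in shNC, so its direction depends on the unit. In the other 28 RNAs that rose, both hairpin groups also had the higher mean FPKM, and in the 10 that fell both had the lower.

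**Figure D3:**
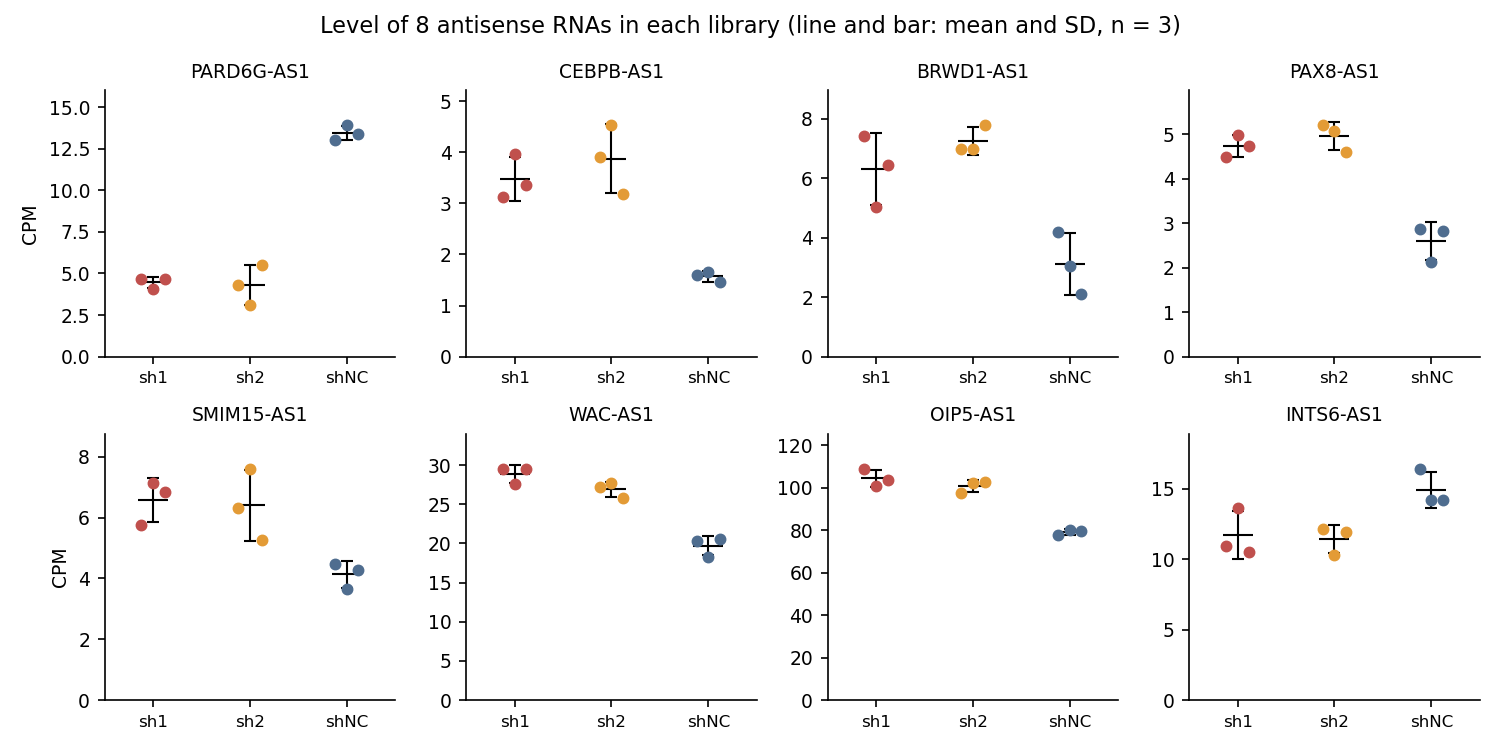
CPM of 8 antisense RNAs in each library (points), with the mean and SD of each group (line and bar, n = 3), for sh1-HUMT (red), sh2-HUMT (orange) and shNC (blue). PARD6G-AS1 sits between 3.08 and 5.50 CPM in the hairpin libraries and at 13.0 CPM or more in the shNC libraries.

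Other named RNAs that rose had higher levels. SLC9A3-AS1, beside the gene of an apical sodium and hydrogen exchanger, had 24.6, 24.2 and 25.8 CPM in sh1-HUMT libraries, 30.9, 27.7 and 29 CPM in sh2-HUMT libraries, and 17.7, 17.5 and 17.7 CPM in shNC libraries. All hairpin libraries were higher, and the folds were 1.41 and 1.65 (log2 changes 0.50 and 0.73, SE 0.06 each, adjusted p = 3.48e-05 and 1.24e-06, edgeR). GAS6-AS1, beside the gene of a ligand of the AXL receptor kinase, had 39.4, 35.5 and 38.9 CPM in sh1-HUMT libraries, 41.5, 38.2 and 37.7 CPM in sh2-HUMT libraries, and 26.7, 28.3 and 26.3 CPM in shNC libraries. Its folds were 1.4 and 1.44 (adjusted p = 4.53e-05 and 2.00e-05), while GAS6 itself was not called, at log2 changes of -0.16 and 0.01. OIP5-AS1, known in fish as cyrano and in human cells as a partner of the RNA-binding protein HuR, had 109, 101 and 104 CPM in sh1-HUMT libraries, 97.6, 102 and 103 CPM in sh2-HUMT libraries, and 77.8, 80.4 and 79.7 CPM in shNC libraries. The groups lay far apart for so small a change, with folds of 1.32 and 1.27 (log2 changes 0.40 and 0.35, SE 0.04 each, adjusted p = 6.01e-06 and 1.77e-05).

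2 more named RNAs rose in both comparisons. CYP1B1-AS1, beside the gene of a cytochrome that metabolises oestrogens and foreign compounds, had folds of 1.65 in sh1-HUMT and 1.57 in sh2-HUMT (adjusted p = 0.0127 and 0.0212), and KLF3-AS1, beside the gene of a zinc finger repressor, had folds of 1.55 and 1.44 (adjusted p = 0.0180 and 0.0429). For CYP1B1-AS1 in sh2-HUMT, leaving out shNC replicate 1, shNC replicate 2 or sh2-HUMT replicate 2 each ended the call (adjusted p up to 0.0987). The sh1-HUMT call of KLF3-AS1 was lost without shNC replicate 1 (adjusted p = 0.0616), and its sh2-HUMT call in 9 of 17 alternatives, among them each shNC and each sh1-HUMT library left out and sh2-HUMT replicate 2 left out (adjusted p up to 0.193). NNT-AS1, ELF3-AS1 and EMC3-AS1 were also among the 29, with log2 changes of 0.23, 0.19 and 0.38 in sh1-HUMT and 0.29, 0.31 and 0.46 in sh2-HUMT; they are outside the rule for named genes and were picked after their values were seen.

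PARD6G-AS1 had the largest fall called in both comparisons, over 3 times. It lies beside PARD6G, the gene of a subunit of the PAR cell polarity complex, and shares no exonic bases with it in GENCODE release 29. It had 4.67, 4.09 and 4.65 CPM in sh1-HUMT libraries, 4.31, 3.08 and 5.50 CPM in sh2-HUMT libraries, and 13.0, 13.9 and 13.4 CPM in shNC libraries. No hairpin library came near the controls. The log2 change of PARD6G-AS1 was -1.59 in sh1-HUMT (SE 0.16, 3.01 times lower, adjusted p = 1.4e-05, edgeR, n = 3 each) and -1.64 in sh2-HUMT (SE 0.16, 3.13 times lower, adjusted p = 1.05e-05), and no alternative ended either call. PARD6G itself had 5.83, 4.77 and 4.38 CPM in sh1-HUMT libraries, 6.91, 5.02 and 6.31 CPM in sh2-HUMT libraries, and 6.02, 5.66 and 5.17 CPM in shNC libraries. Those groups overlapped, and PARD6G was not called (adjusted p = 0.426 and 0.606).

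The other 9 RNAs that fell in both comparisons changed by less than a factor of 1.5. USP3-AS1, beside the gene of a histone deubiquitinase, had 43.4, 37.9 and 45.8 CPM in sh1-HUMT libraries, 37.6, 37.3 and 37.5 CPM in sh2-HUMT libraries, and 54.4, 47.3 and 55.7 CPM in shNC libraries. USP3-AS1 was 1.24 times lower in sh1-HUMT (adjusted p = 0.00794, edgeR; 0.0996 with the GC and length correction) and 1.4 times lower in sh2-HUMT (adjusted p = 0.000469), with no overlap, and USP3 was not called. THUMPD3-AS1, beside the gene of a transfer RNA methyltransferase, was 1.4 and 1.25 times lower (adjusted p = 0.000952 and 0.0101; without shNC replicate 1 the sh2-HUMT p was 0.0518), and CCDC13-AS1 was 1.30 and 1.21 times lower (adjusted p = 0.00165 and 0.00946; 0.100 in sh2-HUMT with the GC and length correction). TP73-AS1, beside the gene of a relative of p53, was 1.23 and 1.14 times lower (adjusted p = 0.00175 and 0.0214), and DLGAP1-AS1 was 1.14 and 1.11 times lower (adjusted p = 0.00325 and 0.0159). In sh2-HUMT the TP73-AS1 call needed shNC replicates 1 and 3 and every sh2-HUMT library (adjusted p up to 0.0802). The DLGAP1-AS1 call there needed shNC replicates 1 and 2 and sh2-HUMT replicate 2, and it was lost in both comparisons with the GC and length correction (adjusted p up to 0.413). RNF217-AS1, beside the gene of a ubiquitin ligase, was 1.16 times lower in each (adjusted p = 0.0458 and 0.0395). RNF217 itself was also called lower in both (log2 changes -0.22 and -0.19). The calls of RNF217-AS1 were lost in 14 and 9 of 17 alternatives, including each shNC library left out (adjusted p up to 0.154).

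Among the 5 most abundant antisense RNAs by mean CPM, PXN-AS1 and LRRC75A-AS1 fell slightly, OIP5-AS1 rose, and PRKCA-AS1 and COL4A2-AS2 were not called. The mean of PXN-AS1 was 1.11 times lower in sh1-HUMT (log2 change -0.15, SE 0.04, adjusted p = 0.00826, edgeR) and 1.09 times lower in sh2-HUMT (log2 change -0.12, SE 0.04, adjusted p = 0.0216). LRRC75A-AS1 had 262, 280 and 256 CPM in sh1-HUMT libraries, 287, 282 and 272 CPM in sh2-HUMT libraries, and 311, 311 and 306 CPM in shNC libraries. It was 1.16 and 1.1 times lower (adjusted p = 0.000387 and 0.00618). With the GC and length correction neither RNA was called, and their log2 changes lay near 0, at -0.01 and 0.057 for LRRC75A-AS1 and at 0.02 and 0.0044 for PXN-AS1. The medians over all genes were 0.066 and 0.060 in that fit, and both RNAs lay below them in both comparisons. The lost calls thus cannot be put down to GC content and length alone. PXN-AS1 in sh2-HUMT also failed the test when shNC replicate 1, shNC replicate 2 or any sh2-HUMT library was left out. PRKCA-AS1, beside the gene of a protein kinase C, had log2 changes of 0.01 (adjusted p = 0.953) and 0.13 (adjusted p = 0.135), and COL4A2-AS2, beside the gene of a basement membrane collagen, 0.07 (adjusted p = 0.298) and 0.09 (adjusted p = 0.148). With the GC and length correction COL4A2-AS2 was called higher in both comparisons (log2 changes 0.20 and 0.17, adjusted p = 0.00267 and 0.00724), and so it was in both without shNC replicate 1. PRKCA-AS1 was called higher in sh2-HUMT with that correction (log2 change 0.26, adjusted p = 0.0199), with DESeq2, in the fit of 2 groups and without sh1-HUMT replicate 3.

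Some RNAs were called against shNC in 1 hairpin group alone, which does not show that the hairpin groups differ, since none was called between them. USP46-AS1, beside the gene of a deubiquitinase, had 6.86, 8.90 and 7.91 CPM in sh1-HUMT libraries, 5.70, 5.84 and 5.10 CPM in sh2-HUMT libraries, and 4.19, 4.93 and 5.08 CPM in shNC libraries. The sh1-HUMT libraries stood highest (fold 1.67, adjusted p = 0.000868, edgeR), and the sh2-HUMT libraries lay only just above the controls (fold 1.17, adjusted p = 0.207; log2 change 0.41 in place of 0.23, adjusted p = 0.0264, with the GC and length correction). In sh1-HUMT only, LIX1L-AS1 and PRKAR2A-AS1 also rose (folds 1.54 and 1.36, adjusted p = 0.0441 and 0.0476), and DGUOK-AS1, beside the gene of a mitochondrial nucleoside kinase, and TMEM9B-AS1 fell (1.35 and 1.19 times lower, adjusted p = 0.00252 and 0.00555). LIX1L-AS1 lost its call in 7 of 17 alternatives, among them any sh1-HUMT library, shNC replicate 1, shNC replicate 2 and sh2-HUMT replicate 3 left out in turn (adjusted p up to 0.128). PRKAR2A-AS1 lost it in 8, among them any shNC library and replicates 1 and 2 of either hairpin group left out in turn (adjusted p up to 0.200). DGUOK-AS1 and TMEM9B-AS1 lost it with the GC and length correction. In sh2-HUMT, DGUOK-AS1 passed the test in 3 alternatives and TMEM9B-AS1 in 2 (lowest adjusted p = 0.0320 and 0.0444).

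In sh2-HUMT only, HLX-AS1 had the largest fall, at 0.269, 0.588 and 0.716 CPM, against 1.27, 1.47 and 1.5 CPM in shNC libraries, while sh1-HUMT libraries had 2.36, 0.989 and 1.07 CPM. The sh2-HUMT libraries were below all others (2.68 times lower than shNC, adjusted p = 0.0211, edgeR), and the sh1-HUMT libraries overlapped the controls (adjusted p = 0.931). HLX, a homeobox gene, was 1.98 times as high in sh2-HUMT (adjusted p = 0.0226), and 51.9% of the exonic bases of HLX-AS1 lie in HLX exons. Leaving out shNC replicate 2, shNC replicate 3 or sh2-HUMT replicate 1 each ended the HLX-AS1 call (adjusted p up to 0.0758). USP2-AS1 was 2.08 times lower (adjusted p = 0.0255) and SRD5A3-AS1, beside the gene of a reductase of dolichol synthesis, 1.34 times lower (adjusted p = 0.0119). SDCBP2-AS1 was 1.44 times lower (adjusted p = 0.0448), a call lost in 9 of 17 alternatives, among them any sh2-HUMT library, shNC replicate 1, shNC replicate 2 and sh1-HUMT replicate 3 left out in turn (adjusted p up to 0.215). The USP2-AS1 call needed shNC replicate 3 and sh2-HUMT replicate 2, and that of SRD5A3-AS1 needed shNC replicate 2; both were lost with the GC and length correction (adjusted p up to 0.105 and 0.0725). TMEM220-AS1 (fold 1.98, adjusted p = 0.00677) and AZIN1-AS1 (fold 1.60, adjusted p = 0.0216) rose in sh2-HUMT. TMEM220-AS1 passed in sh1-HUMT in 2 alternatives, among them the GC and length correction (adjusted p = 0.0213), and SDCBP2-AS1 in 1, without shNC replicate 3. AZIN1-AS1 was not called when shNC replicate 3, sh2-HUMT replicate 1 or sh2-HUMT replicate 3 was left out (adjusted p up to 0.0598).

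The largest fitted changes belonged to RNAs that varied within groups and were not called. UST-AS1 had 1.96, 0 and 5.05 CPM in sh1-HUMT libraries, 0, 3.49 and 4.38 CPM in sh2-HUMT libraries, and 0, 0.230 and 0 CPM in shNC libraries. Each hairpin group held 1 library at 0, so the groups overlapped (adjusted p = 0.174 and 0.158, edgeR). ST7-AS2 had 0.534, 0 and 0 CPM in sh1-HUMT libraries, 2.15, 0.588 and 0.895 CPM in sh2-HUMT libraries, and 3.01, 1.47 and 0.705 CPM in shNC libraries (adjusted p = 0.0664 and 0.726). In all, 6 of the 218 RNAs called in neither comparison had a fitted log2 change beyond 1 in at least 1 comparison.

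Over all pairs, the changes of antisense RNAs and of their sense genes were hardly correlated. Where both genes of a pair were called, more pairs moved the same way than opposite ways, which was not tested. Of the 260 sense genes tested, 109 were called in sh1-HUMT (57 higher and 52 lower, 41.9%) and 100 in sh2-HUMT (50 higher and 50 lower, 38.5%), beside 31.9% and 32.5% of all genes. Over the 263 pairs with both genes tested, in sh1-HUMT 12 rose together, 5 fell together, and in 6 the antisense RNA rose while the sense gene fell; none went the other way. A further 26 had a call for the antisense RNA alone (18 higher and 8 lower), 87 for the sense gene alone and 127 for neither. In sh2-HUMT 7 pairs rose together, 7 fell together, 4 had a rise of the antisense RNA with a fall of the sense gene, 2 had the reverse, 31 had a call for the antisense RNA alone, 80 for the sense gene alone and 132 for neither. Across the 263 pairs the log2 changes of antisense RNA and sense gene had a Pearson correlation of -0.02 in sh1-HUMT and 0.00 in sh2-HUMT (Spearman 0.08 and 0.09). These describe pairs of genes measured in the same libraries, which are not independent samples. In the 123 pairs with at least 100 mean counts in both genes, Pearson's r was 0.10 and 0.02. The sign was the same in 53.6% and 51.7% of pairs.

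**Figure D4:**
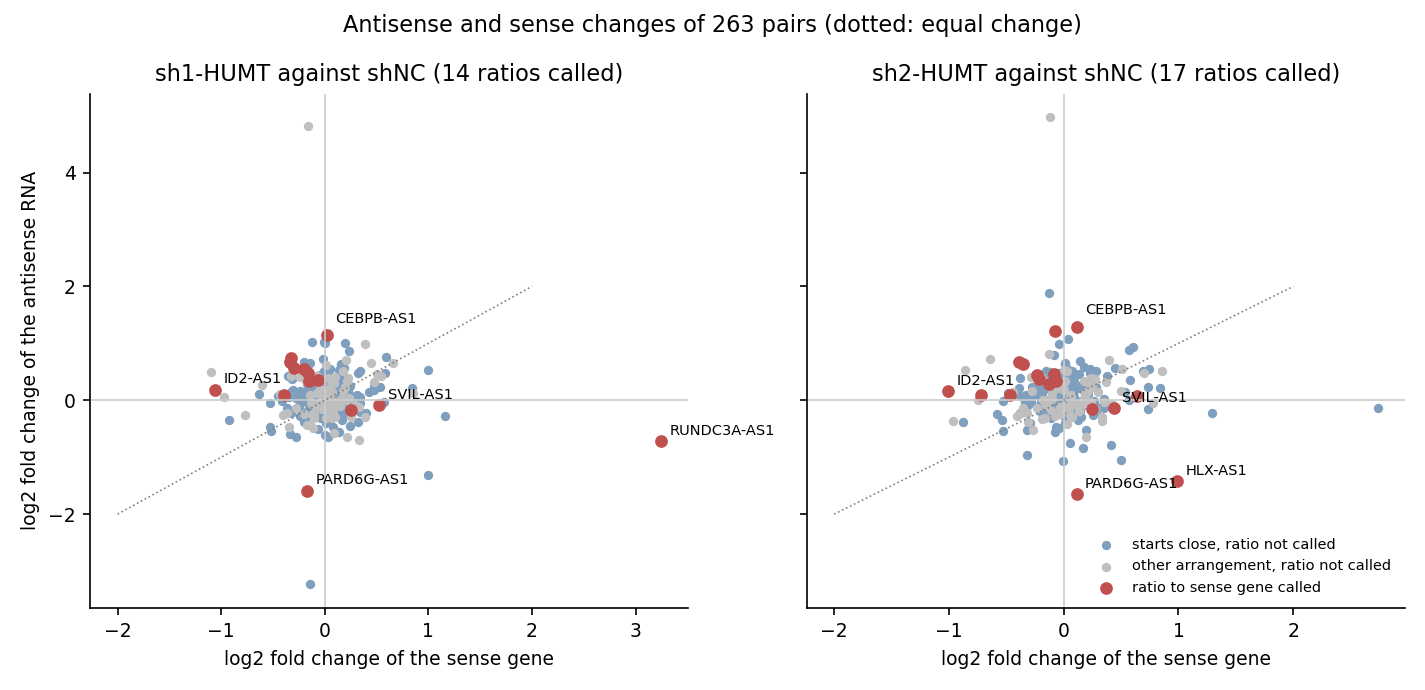
log2 fold change (edgeR) of each antisense RNA against that of its sense gene, for 263 pairs in sh1-HUMT against shNC (left) and sh2-HUMT against shNC (right); blue pairs have starts within 2000 bases, the dotted line marks equal change, and red pairs had a called ratio. The points show no slope, with correlations of -0.02 and 0.00.

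By arrangement, 26 antisense RNAs rose and 6 fell in sh1-HUMT among the 180 tested pairs with close starts, and 9 rose and 7 fell among the 77 overlapping pairs with starts apart. In sh2-HUMT, 23 rose and 9 fell with close starts, and 7 rose and 11 fell with starts apart. With close starts that is 14.4% higher and 3.33% lower in sh1-HUMT and 12.8% and 5% in sh2-HUMT, beside 15.7% and 16.3% of all genes in sh1-HUMT and 15.9% and 16.5% in sh2-HUMT. With starts apart it is 11.7% higher and 9.09% lower in sh1-HUMT and 9.09% and 14.3% in sh2-HUMT. The difference between the arrangements was not tested.

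The ratio of antisense RNA to sense gene was tested with limma on log2 CPM over the 327 pairs of the table in which both genes were tested, of which 263 hold an antisense RNA described here. In sh1-HUMT, 14 ratios of those 263 were called, 10 higher and 4 lower, where 4.28% of all 327 pairs were called, 3.06% higher and 1.22% lower. In sh2-HUMT, 17 were called, 12 higher and 5 lower, beside 5.20% of all pairs, 3.67% higher and 1.53% lower. All pairs called were among the 263. The same 10 pairs were called in both, 7 higher and 3 lower, and none between the hairpin groups. These counts differed with the libraries fitted: without 1 of the 9 libraries, 8 to 11 pairs were called in sh1-HUMT and 5 to 20 in sh2-HUMT. In sh1-HUMT the count fell whichever library was left out, also a sh2-HUMT library outside that comparison. In sh1-HUMT the count was 8 without replicate 2 or 3 of shNC or of sh1-HUMT, and 9 without shNC replicate 1 or sh2-HUMT replicate 1. In sh2-HUMT it was 5, 7 and 6 without sh2-HUMT replicate 1, 2 and 3, and 9, 9 and 8 without shNC replicate 1, 2 and 3.

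ID2-AS1 and ID2, which share nearly all of 1 promoter window in the sequence above, had the largest rise of a ratio called in both comparisons. ID2-AS1 had 24.2, 23.2 and 24.4 CPM in sh1-HUMT libraries, 23.4, 25.2 and 21.9 CPM in sh2-HUMT libraries, and 21.5, 20.1 and 21.5 CPM in shNC libraries. ID2, an inhibitor of basic helix-loop-helix transcription factors, had 54.9, 57.7 and 52.4 CPM in sh1-HUMT libraries, 57.2, 59.8 and 54.3 CPM in sh2-HUMT libraries, and 115, 118 and 111 CPM in shNC libraries. The antisense RNA thus stood slightly above the controls in all 6 hairpin libraries, and the sense gene stood far below them. ID2-AS1 had log2 changes of 0.19 (SE 0.06, adjusted p = 0.0369, edgeR) and 0.16 (SE 0.06, adjusted p = 0.0692). ID2 fell by 1.06 and 1.0 on the log2 scale (SE 0.05 each, adjusted p = 8.15e-09 and 1.13e-08). The call of ID2-AS1 in sh1-HUMT was lost in 7 of 17 alternatives, among them replicate 1 of each group, shNC replicate 2 and sh1-HUMT replicate 3 left out in turn (adjusted p up to 0.112). In sh2-HUMT its change passed the test in 3 alternatives: upper-quartile normalization, sh2-HUMT replicate 3 left out, and the GC and length correction, under which its log2 changes were 0.37 and 0.32 (adjusted p = 0.000445 and 0.00131). The log2 ratio of ID2-AS1 to ID2 rose by 1.24 in sh1-HUMT (SE 0.09, adjusted p = 0.000181, limma) and by 1.16 in sh2-HUMT (SE 0.09, adjusted p = 0.000319), and no alternative ended those calls.

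WAC-AS1 and WAC moved in opposite directions. WAC-AS1 had 29.5, 27.6 and 29.5 CPM in sh1-HUMT libraries, 27.1, 27.7 and 25.9 CPM in sh2-HUMT libraries, and 20.4, 18.3 and 20.6 CPM in shNC libraries. WAC, an adaptor of histone H2B ubiquitination, had 156, 151 and 156 CPM in sh1-HUMT libraries, 149, 153 and 152 CPM in sh2-HUMT libraries, and 176, 176 and 183 CPM in shNC libraries. Neither gene's hairpin libraries overlapped its controls: WAC-AS1 rose by 0.55 and 0.45 on the log2 scale (SE 0.06 each, adjusted p = 2.41e-05 and 0.000122, edgeR) and WAC fell by 0.20 and 0.23 (SE 0.03 each, adjusted p = 0.000127 and 3.87e-05). The log2 ratio of WAC-AS1 to WAC rose by 0.75 and 0.68 (SE 0.09 each, adjusted p = 0.00153 and 0.00317, limma).

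SMIM15-AS1 and PSMG3-AS1 were the other RNAs that rose in both comparisons while the sense gene fell in both. SMIM15-AS1 had 5.74, 7.15 and 6.84 CPM in sh1-HUMT libraries, 6.33, 7.60 and 5.28 CPM in sh2-HUMT libraries, and 4.47, 3.64 and 4.28 CPM in shNC libraries. Its log2 changes were 0.67 and 0.63 (adjusted p = 0.00512 and 0.00708, edgeR), against -0.34 and -0.36 for SMIM15, the gene of a small membrane protein, and 32.4% of the exonic bases of SMIM15-AS1 lie in SMIM15 exons. PSMG3-AS1 had 18.2, 20.8 and 19.3 CPM in sh1-HUMT libraries, 16.8, 17.1 and 17.2 CPM in sh2-HUMT libraries, and 14.7, 12.8 and 12.1 CPM in shNC libraries. It rose by 0.56 and 0.37 (adjusted p = 0.000258 and 0.00432), while PSMG3, the gene of a proteasome assembly chaperone, fell by 0.30 and 0.21 on the log2 scale (adjusted p = 0.00184 and 0.0135). In sh2-HUMT, the ratio call of SMIM15-AS1 was lost without sh2-HUMT replicate 1 or 2 (adjusted p up to 0.0586), and that of PSMG3-AS1 without any 1 of the sh2-HUMT libraries and with the GC and length correction (adjusted p up to 0.0644).

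In the other pairs called in both, 1 partner passed the test of its own change. For CEBPB-AS1 it was the antisense RNA: CEBPB had log2 changes of 0.02 and 0.12 (adjusted p = 0.808 and 0.100, edgeR), and the log2 ratio rose by 1.08 and 1.12 (SE 0.16 each, adjusted p = 0.00665 and 0.00721, limma). In the pair of PARD6G-AS1 the ratio fell by 1.4 and 1.77 on the log2 scale (SE 0.17 each, adjusted p = 0.00213 and 0.000669). SRP14-AS1, beside the gene of a signal recognition particle protein, completed the 7 pairs with a higher ratio and is outside the rule for named genes; its log2 changes were 0.35 and 0.33, against -0.06 and -0.07 for SRP14. For OTUD6B-AS1 it was the sense gene: OTUD6B-AS1 had log2 changes of 0.09 and 0.10 (adjusted p = 0.447 and 0.421), and OTUD6B, a deubiquitinase gene, fell by 0.40 and 0.47. The same held for SVIL-AS1, which had -0.09 and -0.13 (adjusted p = 0.275 and 0.0873) while SVIL, an actin-binding protein gene, rose by 0.53 and 0.44. SBF2-AS1 had -0.18 and -0.15 (adjusted p = 0.0635 and 0.112), and SBF2 rose by 0.25 in each. The ratio calls of OTUD6B-AS1 were lost in 10 and 6 of 15 alternatives and those of SBF2-AS1 in 12 and 11, including each shNC library left out (adjusted p up to 0.116 and 0.133). SBF2-AS1 has 32.2% of its exonic bases in SBF2 exons. The farthest ratio belonged to RUNDC3A-AS1, named after its values were seen and called in sh1-HUMT only (log2 difference -3.52, adjusted p = 0.0119). It rests on few counts of RUNDC3A, which had 3.12, 1.84 and 0.938 CPM in sh1-HUMT libraries, 2.92, 0.543 and 0.671 CPM in sh2-HUMT libraries, and 0.235, 0.322 and 0.0470 CPM in shNC libraries.

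**Figure D5:**
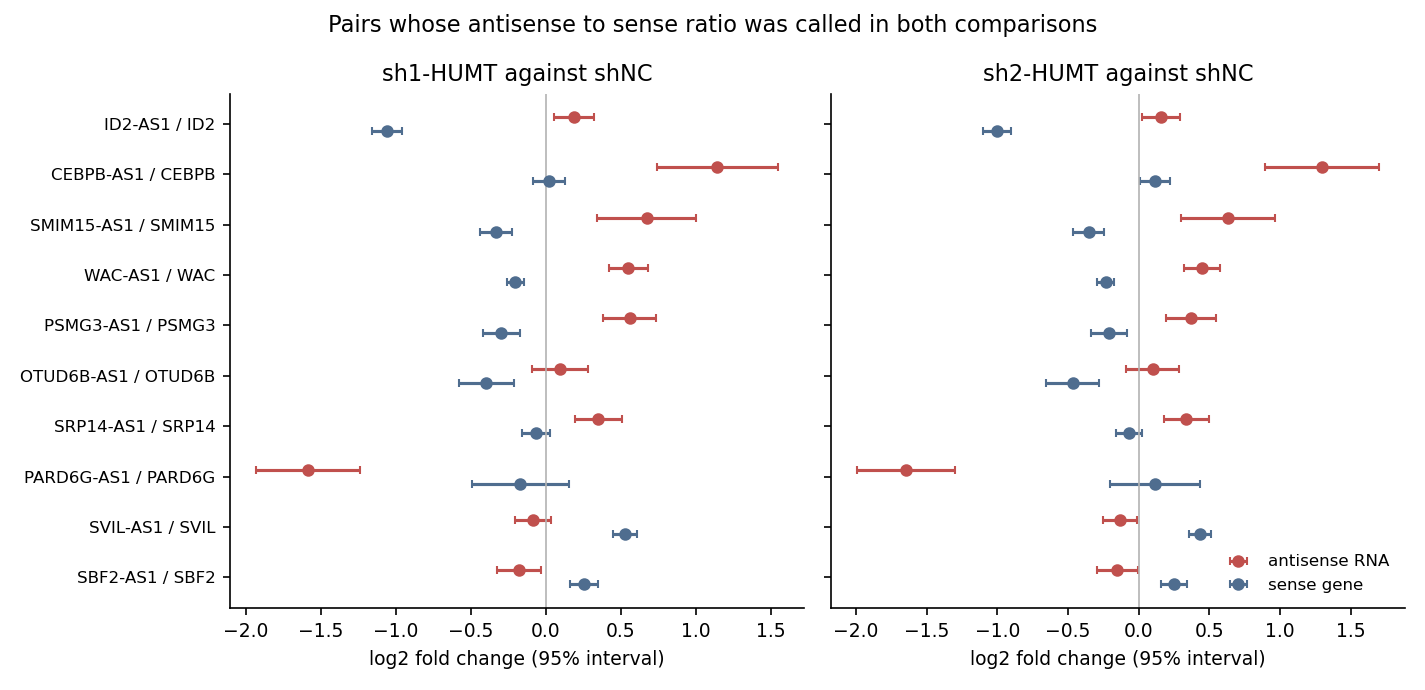
log2 fold change (edgeR, points) with its 95% interval (bars) of the antisense RNA (red) and the sense gene (blue) in the 10 pairs whose ratio was called in both comparisons, for sh1-HUMT against shNC (left) and sh2-HUMT against shNC (right). In the ID2 pair the sense gene lies near -1 and the antisense RNA just above 0, and in the PARD6G pair the antisense RNA lies near -1.6.

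Of the 47 pairs with a shared window and both genes tested, both genes were called in 9 in sh1-HUMT, 5 in the same direction and 4 in opposite directions (ID2-AS1, SRP54-AS1, USP46-AS1 and WAC-AS1 with their sense genes). In sh2-HUMT both were called in 4, of which 3 moved in the same direction, the pairs of ELF3-AS1, INTS6-AS1 and UGDH-AS1. Over all 263 pairs, 12 rose together, 5 fell together and 6 moved in opposite directions in sh1-HUMT. In sh2-HUMT 7 rose together and 7 fell together, and the antisense RNA alone rose in 4 and the sense gene alone in 2 opposite pairs. The difference from shared windows was not tested. INTS6-AS1 had 10.9, 13.7 and 10.5 CPM in sh1-HUMT libraries, 12.1, 10.3 and 11.9 CPM in sh2-HUMT libraries, and 16.4, 14.2 and 14.2 CPM in shNC libraries. INTS6, the gene of a subunit of the Integrator complex, had 12.1, 9.76 and 11 CPM in sh1-HUMT libraries, 10.5, 11.4 and 12.2 CPM in sh2-HUMT libraries, and 18.4, 23.0 and 21.0 CPM in shNC libraries. Both genes were lower in all 6 hairpin libraries: INTS6-AS1 fell by 0.35 and 0.38 (adjusted p = 0.0285 and 0.0185, edgeR) and INTS6 by 0.93 and 0.87 (adjusted p = 2.96e-05 and 4.24e-05) on the log2 scale. The INTS6-AS1 call was lost with the GC and length correction in both comparisons, without shNC replicate 1 in both, without sh1-HUMT replicate 1 or 3 in sh1-HUMT and without sh2-HUMT replicate 2 in sh2-HUMT (adjusted p up to 0.122). UGDH-AS1, named after its values were seen, rose by 0.52 and 0.48 (adjusted p = 0.000143 and 0.000256), and UGDH, whose enzyme makes UDP-glucuronate, rose by 0.34 and 0.23.

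NR2F2-AS1 and NR2F2, the gene of the orphan receptor COUP-TFII, rose together. NR2F2-AS1 had 3.92, 3.37 and 4.65 CPM in sh1-HUMT libraries, 5.43, 4.16 and 3.49 CPM in sh2-HUMT libraries, and 2.02, 2.30 and 2.73 CPM in shNC libraries. Its log2 changes were 0.76 and 0.89 (adjusted p = 0.0124 and 0.00467, edgeR; 0.0547 in sh1-HUMT without sh1-HUMT replicate 3), and those of NR2F2 were 0.59 and 0.56 (adjusted p = 1.65e-07 and 2.21e-07). NR2F1-AS1, outside the rule for named genes, had log2 changes of 0.25 (adjusted p = 0.0487) and 0.08 (adjusted p = 0.536), and NR2F1, the gene of the related COUP-TFI, rose by 0.47 and 0.64. BHLHE40-AS1 and BHLHE40, the gene of a repressor tied to the circadian clock and hypoxia, were both lower in sh1-HUMT: BHLHE40-AS1 had log2 changes of -0.47 (adjusted p = 0.0499) and -0.35 (adjusted p = 0.133), and BHLHE40 fell by 0.53 and 0.54 on the log2 scale (adjusted p = 4.09e-08 and 2.71e-08). That call of BHLHE40-AS1 was lost in 15 of 17 alternatives, among them any 1 of 8 libraries left out, all but sh2-HUMT replicate 2 (adjusted p up to 0.157). In the USP46 and SRP54 pairs of sh1-HUMT the antisense RNA rose and the sense gene fell: SRP54-AS1 had 0.34 (adjusted p = 0.0396) against -0.16 for SRP54, and USP46-AS1 had 0.74 against -0.33 for USP46 (adjusted p = 0.0429). The SRP54-AS1 call was lost in 9 of 17 alternatives, among them shNC replicate 1 or 3 or any sh1-HUMT library left out (adjusted p up to 0.138). Further named RNAs were called the same way as their sense gene. LRRC75A had log2 changes of -0.37 and -0.35. Such calls in sh1-HUMT alone had KLF3 at 0.16, TMEM254 at 0.20, PRKAR2A at 0.17 and DGUOK at -0.15. Those in sh2-HUMT alone had PAX8 at 0.60, OIP5 at 0.26 and THUMPD3 at -0.18. AZIN1, at -0.39 in sh2-HUMT, went the opposite way to AZIN1-AS1.

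The series title names glycolysis, and 6 pairs were picked by hand for the role of the sense gene, from no list and outside the rule for named genes; the UGDH and DGUOK pairs, described above, also hold enzymes of metabolism. SLC2A1-AS1 had 6.63, 4.68 and 5.18 CPM in sh1-HUMT libraries, 6.33, 5.21 and 6.80 CPM in sh2-HUMT libraries, and 5.79, 5.25 and 4.66 CPM in shNC libraries, so its groups overlapped. Its log2 changes were 0.07 and 0.22 (adjusted p = 0.775 and 0.304, edgeR), while SLC2A1, the gene of the glucose transporter GLUT1, fell by 0.45 and 0.39 on the log2 scale (adjusted p = 5.28e-08 and 1.76e-07). SLC16A1-AS1 had log2 changes of -0.06 and 0.09 (adjusted p = 0.804 and 0.642), and SLC16A1, the gene of the lactate transporter MCT1, fell by 0.53 and 0.72 (adjusted p = 2.07e-06 and 1.44e-07). Their log2 ratio was higher by 0.48 in sh1-HUMT (SE 0.18, adjusted p = 0.178, limma) and by 0.82 in sh2-HUMT (SE 0.18, adjusted p = 0.0322). IDH1-AS1 had 0.00 and 0.10 (adjusted p = 0.988 and 0.710), and IDH1, the gene of the cytosolic isocitrate dehydrogenase, fell by 0.19 and 0.22. NNT-AS1 rose by 0.23 and 0.29 (adjusted p = 0.0286 and 0.00850), and NNT, the gene of a mitochondrial transhydrogenase, was not called (adjusted p = 0.905 and 0.0779). NDUFV2-AS1 and SUCLG2-AS1 were not called in either comparison (adjusted p of 0.205 and 0.60 for NDUFV2-AS1, 0.180 and 0.523 for SUCLG2-AS1).

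Only 3 sense genes carried a pair of antisense RNAs, and in none was either RNA called. For the actin-regulating gene CATIP, CATIP-AS1 had log2 changes of 0.54 and 0.23 (adjusted p = 0.0572 and 0.434, edgeR) and CATIP-AS2 of -1.32 and -0.15 (adjusted p = 0.114 and 0.872), while CATIP rose by 1.0 in sh1-HUMT (adjusted p = 0.0159). CATIP-AS1 has 83.1% of its exonic bases in CATIP exons. For PAXIP1, a gene of the DNA damage response, PAXIP1-AS1 had -0.38 and -0.08 and PAXIP1-AS2 had 0.06 and 0.17. For USP12, USP12-AS1 had -0.58 and -0.09 and USP12-AS2 had 0.23 and -0.20, with 0.313 CPM in sh2-HUMT replicate 3 against 1.93 to 3.26 CPM in the other 8 libraries.

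The promoter windows of the antisense RNAs were CG-rich, like those of their sense genes. RefSeq windows were matched for 208 of the 283 RNAs, and 181 pairs had both windows, of which 48 shared bases. The median GC content was 64.0% over the antisense windows, 66.0% over 221 windows of sense genes and 58.7% over all 35116 windows in the table. A GC content over 50% with an observed to expected CpG ratio over 0.6 was found in 67.8%, 74.7% and 46.8% of them in the same order. Letters of common motifs were searched on both strands, some of which overlap one another. The ETS letters CCGGAAG were in 14.4% of antisense windows, 17.6% of sense windows and 10.3% of all windows. In the same order, the EGR letters GCGTGGGCG were in 2.40%, 2.26% and 0.795%, the cyclic AMP element TGACGTCA in 3.85%, 3.17% and 1.85%, and the E-box letters CACGTG in 8.65%, 9.05% and 7.26%. The AP-1 letters TGANTCA were in 4.81%, 5.43% and 7.71%, the heat shock letters GAANNTTC in 5.77%, 2.26% and 6.77%, CCAAT in 33.2%, 33.5% and 34.6%, and TATAAA in 7.69%, 7.69% and 11.5%. An NRF1 motif was in 4.33%, 1.81% and 1.24%. CCAAT was found 3 times in the ID2-AS1 window printed above, and the E-box letters CACGTG once in the INTS6-AS1 window. Such matches describe letters, not binding.

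Other named noncoding RNAs with a mean count of at least 20 are given for comparison, without a test of the difference. Of 184 tested RNAs with LINC symbols, 35 were called in sh1-HUMT (20 higher and 15 lower) and 37 in sh2-HUMT (26 higher and 11 lower), or 19.0% and 20.1%. Of 21 divergent transcripts with symbols ending in -DT, 7 were called in each comparison (33.3%), 6 higher and 1 lower. Of 14 SNHG genes, hosts of small nucleolar RNAs, 6 were called in each (42.9%), 2 higher and 4 lower in sh1-HUMT, and 1 higher and 5 lower in sh2-HUMT. Over all genes 31.9% were called in sh1-HUMT, 15.7% higher and 16.3% lower. In sh2-HUMT it was 32.5%, 15.9% higher and 16.5% lower. Median log2 changes were 0.01 and 0.04 for LINC, 0.30 and 0.27 for -DT, and -0.24 and -0.26 for SNHG genes.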

How the data were processed

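RNA sequencing of 9 libraries was analysed from 1 table of 27059 genes. The authors deposited estimated counts per gene that need not be whole; 91.3% of genes held a fractional value (tolerance 0.005). The deposited expression columns carry no unit in their headers and were taken as FPKM, because for 84.0% of 8854 genes the length they imply lies within the range of the gene's transcripts (10% tolerance). The submitters' processing notes list RSEM 1.2.12, DESeq2 1.4.5, Bowtie2 2.2.5 and HISAT2 2.0.4, with no order or role, and the genome build was not found in them or in the labels. The column names say A549, with Si_1, Si_2 and NC; every result depends on having matched them to the titles by group and replicate. Columns of group averages were not used here.

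After rounding, counts entered 1 edgeR 4.0.16 fit (R 4.3.3) of 3 groups over 9 libraries, with TMM factors of 0.968 to 1.02, for the 18540 genes that passed filterByExpr, and robust quasi-likelihood tests followed. P-values were adjusted by Benjamini-Hochberg over all those genes, and 0.05 was the threshold whatever the fold; tests are two-sided and n is 3 libraries a group. CPM (counts scaled by library size) use TMM-scaled totals, and the common biological coefficient of variation was 7.02%. The ratio of antisense RNA to sense gene was tested with limma 3.58.1 (robust, with a trend) on log2 CPM with a prior count of 2, adjusted over 327 pairs. Arrangement and exon overlap came from GENCODE release 29, and promoter windows from RefSeq GRCh38.p14. The tests were tried on simulated data. Named genes were up to 10 higher and 10 lower called in both comparisons with no overlap, ranked by the smaller change, up to 4 each way called in 1 comparison, the 5 most abundant, and up to 6 ratios each way. 1 RNA that this rule names is not reported here. The RNAs, lists and tests were chosen with earlier results of these data known. Alternatives were DESeq2 1.42.0 and its size factors, upper-quartile normalization, other filters and prior counts, fits of 2 groups, a replicate block, each library left out, and, added after seeing the data, a GC and length correction and a set without RNAs that share over 10% of their exonic bases with the sense gene. In edgeR the GC and length correction took the place of the TMM-scaled library totals, while the ratio tests kept them.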

Additional observations from a re-analysis of the deposited data

How the results depend on the processing

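Among the alternatives, normalization, filters and prior counts kept every count of calls within 1.5 times. DESeq2 called 43 antisense RNAs in sh1-HUMT and 51 in sh2-HUMT, where edgeR called 51 and 53, of which 41 and 47 were the same, and it called 1 between the hairpin groups. Leaving out each library in turn gave 39 to 47 calls in sh1-HUMT, 37 to 53 in sh2-HUMT, 25 to 37 in both and 0 between the hairpin groups. For sense genes it gave 87 to 109 in sh1-HUMT and 82 to 108 in sh2-HUMT, and for ratios 8 to 11 and 5 to 20. Fits of only 2 groups called 8 ratios in sh1-HUMT and 11 in sh2-HUMT. Of the 184 RNAs that share at most 10% of their exonic bases with the sense gene, 34 were called in sh1-HUMT and 33 in sh2-HUMT (18.5% and 17.9%), fewer than in the whole set because fewer were counted. Replicate numbers did not pair the libraries: deviations of same-numbered libraries had correlations of -0.026 to 0.105, and own numbers correlated best in 4 of 18 combinations. With the replicate block, 47 antisense RNAs were called in sh1-HUMT and 54 in sh2-HUMT, 37 in both, 43 and 49 of them shared with the fit without it, and 13 and 17 ratios were called.

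The edgeR fit with the GC and length correction left out the TMM-scaled library totals. In it the share of higher calls among called antisense RNAs was 93.7% in sh1-HUMT and 90.2% in sh2-HUMT, against 74.5% and 62.3% without it. That share was not counted over all genes under the correction. With the correction 63 and 61 RNAs were called, of which 42 and 39 were the same. The medians of the antisense RNAs were then 0.20 and 0.19 on the log2 scale, beside 0.07 and 0.06 over all genes, which were thus shifted upward too. Of 1732 alternative values for 104 named results, 186 lost a call, 23 gained one and 12 changed sign. Signs changed with the GC and length correction for LRRC75A-AS1 in sh2-HUMT (0.057), PXN-AS1 (0.015 in sh1-HUMT and 0.0044 in sh2-HUMT), SRD5A3-AS1 in sh1-HUMT (0.022) and SVIL-AS1 in sh1-HUMT (0.026). Each of these values lay below the median over all genes in that fit, 0.066 in sh1-HUMT and 0.060 in sh2-HUMT. In sh1-HUMT the values with each library left out ranged from -0.45 to 0.28 for HLX-AS1 (below 0 without replicate 1 of shNC or sh1-HUMT, the first at -0.012), from -0.57 to 0.011 for USP2-AS1 (above 0 without shNC replicate 3), and from -0.036 to 0.076 for PRKCA-AS1 (below 0 at -0.016, -0.00063, -0.022 and -0.036 without shNC replicate 1, shNC replicate 3, sh1-HUMT replicate 1 and sh1-HUMT replicate 2); none of these 3 RNAs was called there. The cause of these differences was not tested.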
